A study of Homo sapiens with 3 samples.

Results

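The 3′ terminal stretch of human 28S ribosomal RNA, from U4601 to C5070, was examined for how open its adenosines and cytidines are to dimethyl sulfate. It holds the sarcin-ricin loop, most of domain VI and the 3′ end of the molecule. Its members are every A and C that the deposited table lists from T4601 to C5070, whatever their signal. There are 234 of them (73 A and 161 C) among 2492 A and C of 28S rRNA (9.39%). The RNA came from HEK293 cells, an established line from embryonic kidney. The growth protocol in the labels names HEK293T/17, a subline with the large T antigen of SV40, where the cell line field has HEK293. There were 3 libraries, 1 for each group. Cells were kept for 30 min in medium with 10 µM cycloheximide, with 10 µM RiboBright or with a matched volume of the solvent DMSO, and the DMSO library is the control. With 1 library for each group no difference has a replicate check, and no p-value is given. All differences compare libraries, not treatments.

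Dimethyl sulfate methylates the Watson-Crick edge of adenosine and cytidine where no base pair or protein covers it. Reverse transcriptase makes errors at methylated bases. A high mutation signal therefore stands for an open A or C and a low one for a covered A or C. Domain VI is the last domain of the large-subunit rRNA. Its sarcin-ricin loop is among the most conserved RNA sequences of the ribosome and is the place where elongation factors dock to hydrolyse GTP. Ricin removes the adenine of A4605, and sarcin cuts the chain after the next guanosine, and either lesion stops translation. Eukaryotic domain VI also carries expansion segment 39, GC-rich in mammals and lying toward the ribosome surface. No boundaries of the segment were taken from the files or labels, so the stretch beyond the loop is described by position. Cycloheximide blocks elongation from the E site of the large subunit, where the spent tRNA leaves. RiboBright is the study's probe, and the labels say nothing of its structure.

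The numbering was checked on the letters of the position names. The conserved sarcin-ricin motif occurred 1 time in 28S rRNA and put the cleavable adenosine at A4605. The table ends at C5070, which is the length of RNA28SN5 in RefSeq's genes of GRCh38.p14, where that copy lies on a sequence with no chromosome assigned. Of the other copies, RNA28SN1, RNA28SN2 and RNA28SN3 lie on chromosome 21 and RNA28SN4 on chromosome 22. Reads from copies that are nearly identical cannot be told apart, so a position stands for the pool of copies.

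The sequences on which the results turn are shown 5′ to 3′ as the table spells them, with T for U. Capitals mark each A and C whose scaled signal reached 0.24025, the 75th percentile of the DMSO library, in all 3 libraries. G and U carry no value and stay in lower case.
Sarcin-ricin loop with its flanks, C4593 to U4629: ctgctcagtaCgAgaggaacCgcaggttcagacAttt
Stretch around C4693, A4681 to A4705: attatgactgaACgCctctaagtca
Stretch around A4729, A4717 to C4741: aggCggaacgataCggCAgcgccgC
Part of the GC-rich tract, C4796 to C4834: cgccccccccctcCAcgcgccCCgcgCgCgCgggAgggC
Open adenosine run, C4886 to C4906: cctgggAAACggggCgcggcc
Cytidine cluster near the 3′ end, G5017 to G5033: gcagctCCCtCgctgcg
Last 20 bases of 28S rRNA, C5051 to C5070: cctcgacacaagggtttgtc
The first shows the open bases of the factor-docking loop, the next pair hold members that differed between the treated libraries, and the following ones hold the longest open stretches. The last is where values run out.

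The stretch was well covered compared with 28S rRNA as a whole. Values were listed for 232 of its 234 members in DMSO (99.1%), 232 in cycloheximide and 230 in RiboBright (98.3%), against 89.1%, 90.9% and 73.8% of all A and C of 28S rRNA. A5061 and C5070 had no value in any library, and C5059 and A5060 had none in RiboBright. An exact 0 stood at 1 member in DMSO, 1 in cycloheximide and 11 in RiboBright. C5057 was at 0 in all 3 libraries. At the members listed at 0 in RiboBright the signal was at most 0.071 in DMSO and 0.131 in cycloheximide, so these zeros fell on members of low signal. Read counts are not in the files, so the depth behind each value is unknown.

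Much the same members were open in each library. The median adenosine of the stretch had a signal of 0.1105 in DMSO, 0.134 with cycloheximide and 0.12 with RiboBright, on a scale where about 1 stands for a highly reactive base. Adenosines elsewhere in 28S rRNA stood at 0.137, 0.1405 and 0.1405 in that order. The cytidines of the stretch had medians of 0.077, 0.0935 and 0.086, against 0.0765, 0.081 and 0.0785 in the rest. The upper part of the range differed by base. A deposited signal of at least 0.24025 was found in DMSO at 13 of 72 adenosines (18.1%) and 43 of 160 cytidines (26.9%), against 29.4% of adenosines and 22.8% of cytidines in the rest. In the neighbouring stretch C4101 to G4600, which holds the peptidyl transferase centre of domain V, the shares were 32.4% of adenosines and 15.1% of cytidines. The stretch that ends just before C4101, with 118 A and 129 C, had 19.5% of adenosines and 16.3% of cytidines at this level. A low share of adenosines was therefore not particular to U4601 to C5070. No test of these differences was made, since positions of 1 library are not replicates.

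Over the 219 members above 0 in every library, log2 signal in DMSO and cycloheximide had a Pearson correlation of 0.973, DMSO and RiboBright 0.940, and cycloheximide and RiboBright 0.933. These are correlations across positions of one molecule, and positions are not independent replicates. Over the 1500 such positions in the rest of 28S rRNA the values were 0.948, 0.893 and 0.898. After scaling, 53 members were at or above 0.24025 in all 3 libraries (12 A and 41 C), and 99 members were below the DMSO median of 0.099 in all 3 (19 A and 80 C).

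**Figure D1:**
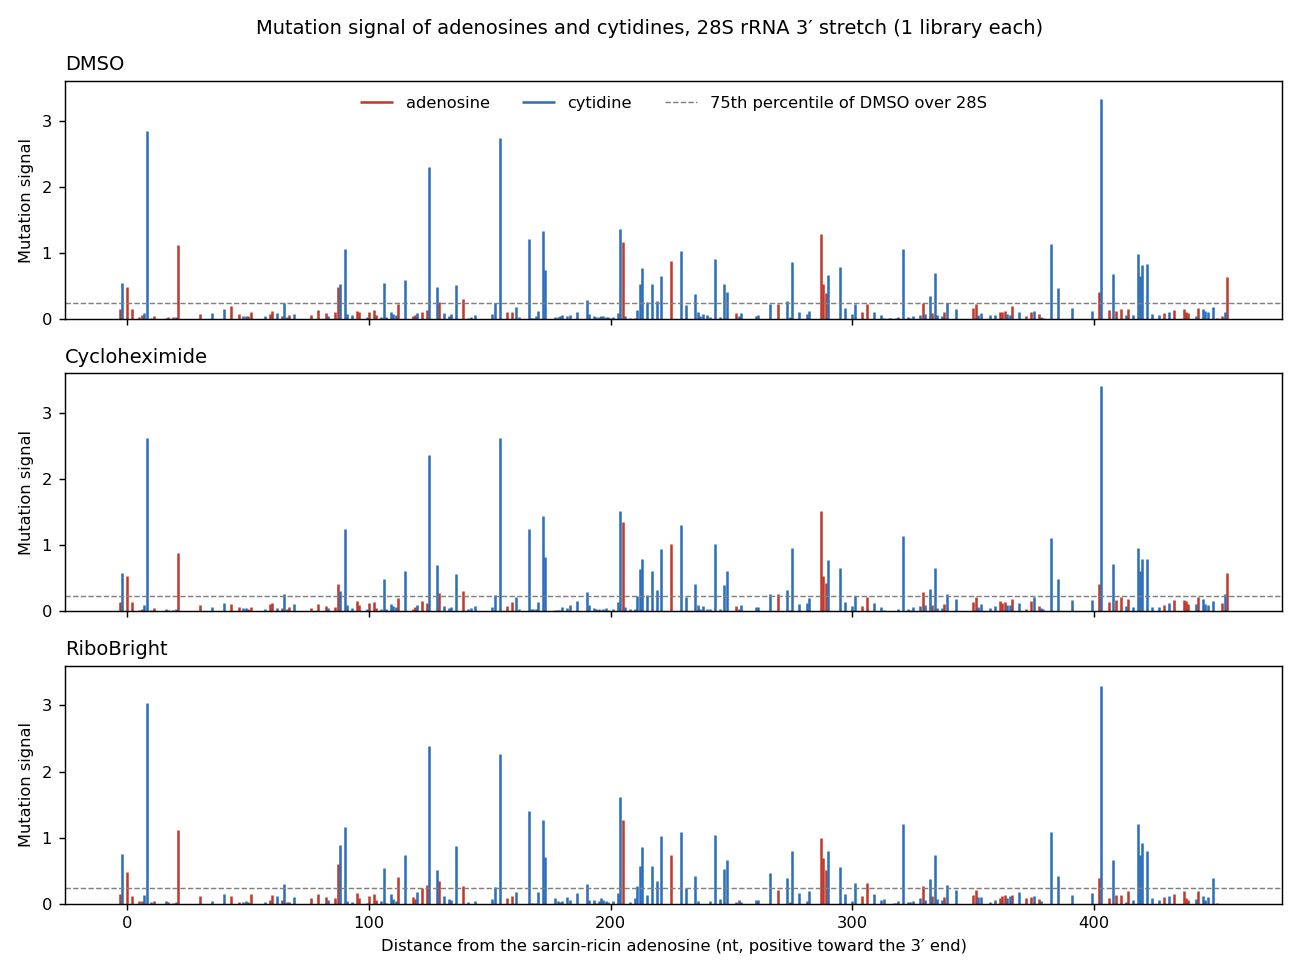
Deposited mutation signal of each adenosine (red) and cytidine (blue) from U4601 to C5070 in the 3 libraries, plotted by distance in nt from A4605. The dashed line is the 75th percentile of DMSO over 28S rRNA, 0.24025. The tallest bars stand at the same positions in all panels, led by C5008 at a distance of 403 nt, where DMSO has 3.334.

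The sarcin-ricin loop was taken from U4601, where the stretch begins, to C4612, although the conserved motif starts at A4599. Within these bounds A4605 and C4603 were open and the other 5 A and C were low, in each library. A4605, the target of ricin, gave 0.48 in the DMSO library, 0.542 in the cycloheximide library and 0.474 in the RiboBright library. That placed it at rank 104 of 770 adenosines of 28S rRNA in DMSO, 95 of 774 in cycloheximide and 107 of 727 in RiboBright. Its log2 ratio to DMSO was 0.09 under cycloheximide and -0.15 under RiboBright, so the factor-docking adenosine was about as reactive in the treated libraries as in the control.

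C4603, which in known structures pairs across the base of the terminal tetraloop, gave 0.552 with DMSO, 0.579 with cycloheximide and 0.751 with RiboBright. RiboBright was the highest of the 3 at this cytidine, with a log2 ratio to DMSO of 0.31 and to cycloheximide of 0.32. A4607, the last base of the tetraloop, had 0.153, 0.137 and 0.12 in the order DMSO, cycloheximide, RiboBright. A4602, which takes part in the non-canonical pairs below the tetraloop, had 0.146, 0.145 and 0.142. These adenosines sat near the median adenosine of 28S rRNA, 0.133 in DMSO.

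A4610 and A4611, on the 3′ side of the loop, were among the least reactive adenosines. A4610 had 0.03, 0.019 and 0.048 in the same order, rank 749 of 770 in DMSO, and A4611 had 0.059, 0.041 and 0.045. C4612 had 0.097, 0.097 and 0.128. No A or C of the loop was called in any comparison, and 2 of the 7, C4603 and A4605, reached the level at which a call was possible. Over the 7 the log2 ratios ran from -0.51 to 0.09 for cycloheximide against DMSO, with a median of -0.08, and from -0.45 to 0.42 for RiboBright against DMSO, with a median of -0.15. Both extremes of that last range were at low members, A4607 and A4610.

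The cytidine directly after the loop as bounded here was among the most reactive of the whole molecule. C4613 reached 2.851 in the control, 2.618 under cycloheximide and 3.036 under RiboBright, rank 14 of 1450 cytidines in DMSO, 15 of 1490 in cycloheximide and 10 of 1111 in RiboBright. Its neighbour C4612 was more than an order of magnitude lower. Behind C4613 came a covered run of 6 members, C4615, A4616, C4621, A4622, A4624 and C4625, with no signal above 0.047 in DMSO, 0.051 in cycloheximide or 0.042 in RiboBright. The run ended at A4626, an open adenosine with 1.125 in DMSO, 0.876 in cycloheximide and 1.112 in RiboBright. Cycloheximide was the lowest of the 3 there, with a log2 ratio of -0.44.

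**Figure D2:**
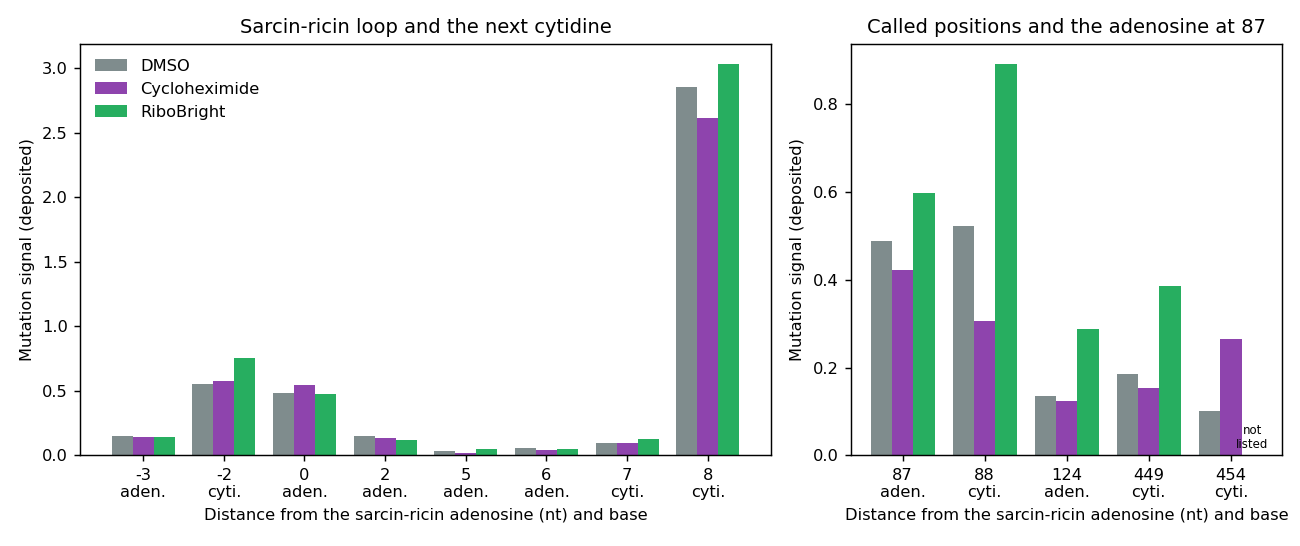
Bars give the deposited mutation signal in each library at the members of the sarcin-ricin loop with the next cytidine (left) and at the 4 called members with A4692 at a distance of 87 nt (right), labelled by distance in nt from A4605 and by base. There is 1 library per bar and no error bar. A4605 (distance 0) stands between 0.474 and 0.542, while C4693 (distance 88) goes from 0.307 in cycloheximide to 0.893 in RiboBright.

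The 10 members with the highest DMSO signal were 8 cytidines and 2 adenosines, spread over the stretch, which holds 161 C and 73 A. The top values of A and of C averaged nearly the same in each library, so the bases may not share a scale. A higher level of C than of A is therefore not read as greater openness. C5008 was highest, with 3.334 in the control, 3.408 under cycloheximide and 3.299 under RiboBright, rank 11 of 1450 cytidines in DMSO. C4613 was next. C4759 had 2.731, 2.616 and 2.273 in the same order, and RiboBright was lowest there with a log2 ratio to DMSO of -0.40. C4730 had 2.296, 2.362 and 2.383. These 4 stood apart from the rest, of which the highest was C4809 with 1.359, 1.517 and 1.616.

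C4777 had 1.33, 1.443 and 1.267, C4771 had 1.212, 1.25 and 1.408, and C4987 had 1.136, 1.113 and 1.08. A4892 was the most reactive adenosine in DMSO (1.283) and cycloheximide (1.516). In RiboBright it had 0.999, below A4810 and A4626. A4810 had 1.166, 1.356 and 1.272 in the 3 libraries. All 10 stayed within 1.5-fold of DMSO in both treated libraries after scaling. Of the 10, 8 were also among the 10 highest in cycloheximide and 8 among the 10 highest in RiboBright.

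Beyond the loop, base composition changed along the stretch. GC content was 52% in U4601 to G4650 and in A4651 to A4700, 92% in C4801 to C4850, and 52% again in U5001 to C5050. The GC-rich window C4801 to C4850 held 28 cytidines and 2 adenosines. Of its 30 members, 12 were at or above 0.24025 in DMSO, 12 in cycloheximide and 13 in RiboBright. The next window, C4851 to C4900, had a larger share, with 9, 11 and 10 of 20 members in that order and a DMSO median of 0.22 against 0.1015. In and around C4801 to C4850, open and covered cytidines lay only partly in separate blocks. The open C4848, with 0.913 in DMSO, stood between C4846 and C4850, each with 0.024. A run of 10 covered cytidines, C4796 to C4806, had no signal above 0.071 in DMSO, 0.094 in cycloheximide or 0.092 in RiboBright. It was followed by the open pair C4809 and A4810.

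Further along the tract, C4822, C4824, C4826, A4830 and C4834 formed an open run, from 0.276 to 1.025 in DMSO, 0.323 to 1.313 in cycloheximide and 0.345 to 1.091 in RiboBright. The other long open runs were A4892 to C4900 and C5023 to C5027. In the former, A4893 gave 0.528 with DMSO, 0.538 with cycloheximide and 0.689 with RiboBright, and A4894 had 0.399, 0.431 and 0.505. C4895 had 0.666, 0.785 and 0.791, and C4900 had 0.788, 0.663 and 0.562. Members of this single open run therefore had their highest value in different libraries.

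In the cluster near the 3′ end, C5023 had 0.986, 0.964 and 1.208, C5024 had 0.648, 0.612 and 0.735, and C5025 had 0.811, 0.8 and 0.927, in the order DMSO, cycloheximide, RiboBright. C5027 had 0.826, 0.789 and 0.793. The first 3 were highest in RiboBright as deposited. A further covered run was C4917 to C4924, 7 cytidines with no signal above 0.061 in DMSO, 0.067 in cycloheximide or 0.073 in RiboBright.

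A secondary structure was computed from the sequence alone, over G4581 to C5070, to see how the signal lay on it. A base was taken as paired where its pairing probability was at least 0.5. Cytidines computed as unpaired had a median signal of 0.467 in DMSO (n = 47), 0.398 in cycloheximide and 0.521 in RiboBright, and paired ones 0.064 (n = 113), 0.065 and 0.0565. Adenosines differed less, with 0.132 unpaired (n = 43) and 0.104 paired (n = 29) in DMSO. Of the 56 members at or above 0.24025 in DMSO, 40 were computed as unpaired. The computed fold is not a measured structure, and it paired A4605 with a probability of 0.985, whereas this adenosine lies in a loop in known structures.

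Of 88 members with a pairing probability of at least 0.9, 5 were nevertheless at or above 0.24025 in DMSO. They were C4613, C4711 (0.539), C4733 (0.483), A4605 and C4878 (0.28). Of 33 with a probability up to 0.1, 15 were at or above that level and 6 were below the DMSO median. Median log2 ratios to DMSO were 0.01 for unpaired and 0.0068 for paired members under cycloheximide, and -0.0071 and -0.09 under RiboBright. Signal levels thus differed by computed pairing, and the ratios between libraries hardly did.

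**Figure D3:**
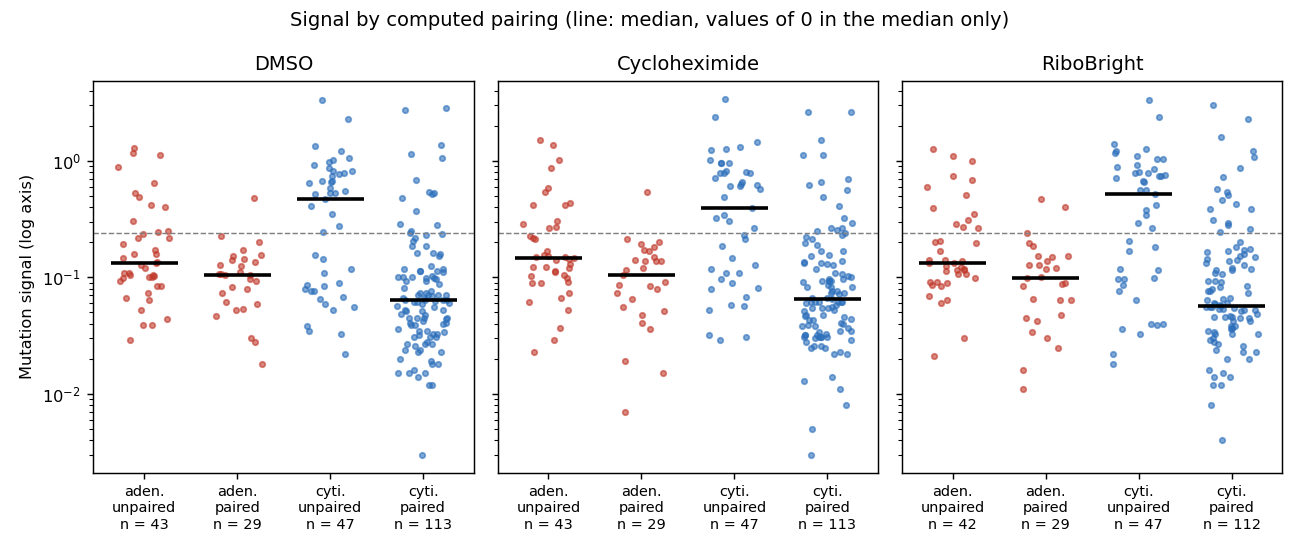
Deposited mutation signal (log axis) of the adenosines and cytidines from U4601 to C5070, split by computed pairing, in each library. Points are positions, thick lines are medians, the dashed line is 0.24025, and values of 0 are not drawn. Unpaired cytidines have a higher median than paired ones in every panel, 0.467 against 0.064 in DMSO. Levels of A and of C may not share a scale.

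To compare signals member by member, libraries were scaled to DMSO by the median of their values above 0 over all A and C of 28S rRNA. The cycloheximide library was multiplied by 0.945 and the RiboBright library by 0.912. This moved every log2 value by -0.08 and -0.13, and the ratios given are measured from there. Each is the log2 ratio of scaled signals, both raised by a pseudocount of 0.0104, which understates changes at low levels. A member was called where the ratio reached 2-fold and the higher of the scaled signals reached the level floor of 0.24025. The same rule was applied to every A and C of 28S rRNA as the background. The comparisons with DMSO share the DMSO library.

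The cycloheximide library was close to the control in the stretch. Of 60 members past the floor, 58 lay within 1.5-fold of DMSO (96.7%), against 88.9% over 28S rRNA. Of the 54 positions past the floor in C4101 to G4600, 96.3% lay within 1.5-fold and 1 was called. Of the 45 in the stretch that ends just before C4101, 95.6% lay within 1.5-fold and 0 were called. Closeness to DMSO was therefore shared with these neighbouring stretches. The rule called 1 of the 60 higher and 0 lower. Over 28S rRNA it called 2.72% higher and 1.87% lower, 4.59% in either direction. The single call among the 60 members, C5059, lies 11 nt from the 3′ end, and its values are given with those of the end below. The median log2 ratio of the 232 members was 0.01, and that of all 2200 positions compared was -0.01.

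Among members past the floor, the lowest ratio to DMSO under cycloheximide was at C4693, with 0.523 and 0.307. Its log2 ratio of -0.83 was short of 2-fold. C4852 had 0.525 and 0.398 (-0.47), and A4626 follows with -0.44. C4900 had -0.33 and A4692, the neighbour of C4693, -0.28. At the other side, C4853 had 0.41 in DMSO and 0.61 in cycloheximide (0.48), next to C4852, which was lower. C4826 had 0.656 and 0.951 (0.45), C4733 0.483 and 0.695 (0.44), and C4834 1.025 and 1.313 (0.27). With C5059 these are the 5 highest ratios, and 2 of the 5, C4826 and C4834, lie in the GC-rich window C4801 to C4850.

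For scale, C4341, an E-site cytidine 260 nt before the stretch, had 2.564 in DMSO and 0.212 in cycloheximide, which is -3.61 on the log2 scale. In RiboBright C4341 had 0.146, a log2 ratio to DMSO of -4.16. The stretch had no ratio of either size past the floor in any comparison. Its lowest were -0.83 for cycloheximide and -0.99 for RiboBright against DMSO.

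Median shifts under cycloheximide were small and differed between windows. In windows of 50 nt the median log2 ratio was lowest in U4601 to G4650, at -0.20, with 14 of 19 members below 0. The 7 members of the sarcin-ricin loop, which lies in it, had a median of -0.08. In windows of 25 nt, U4601 to C4625 had -0.08, and the lowest was the one that ends at A4700, at -0.21. With 50 nt the median was -0.19 in the last window, C5051 to C5070 (n = 8), and -0.19 in A4651 to A4700, with 16 of 25 below 0. It was highest in U5001 to C5050, at 0.14 with 16 of 25 above 0, and in C4801 to C4850, at 0.12 with 19 of 30 above 0. Over 91 windows of 28S rRNA the quartiles were -0.09 and 0.07 and the extremes -0.32 and 0.56. In U4601 to A4700 the shift was larger on adenosines, with a median of -0.25 (n = 24, 18 below 0), than on cytidines, with -0.02 (n = 20, 12 below 0). Most of these members were below the floor. The 8 past it had a median of -0.11, and 5 of them were below 0. From U5001 to C5070 the 9 members past the floor had a median of -0.10 with 7 below 0, the opposite side from the median over all members of U5001 to C5050. From C4801 to C4900 the 23 past the floor had a median of 0.13 with 18 above 0, the same side as all members there.

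**Figure D4:**
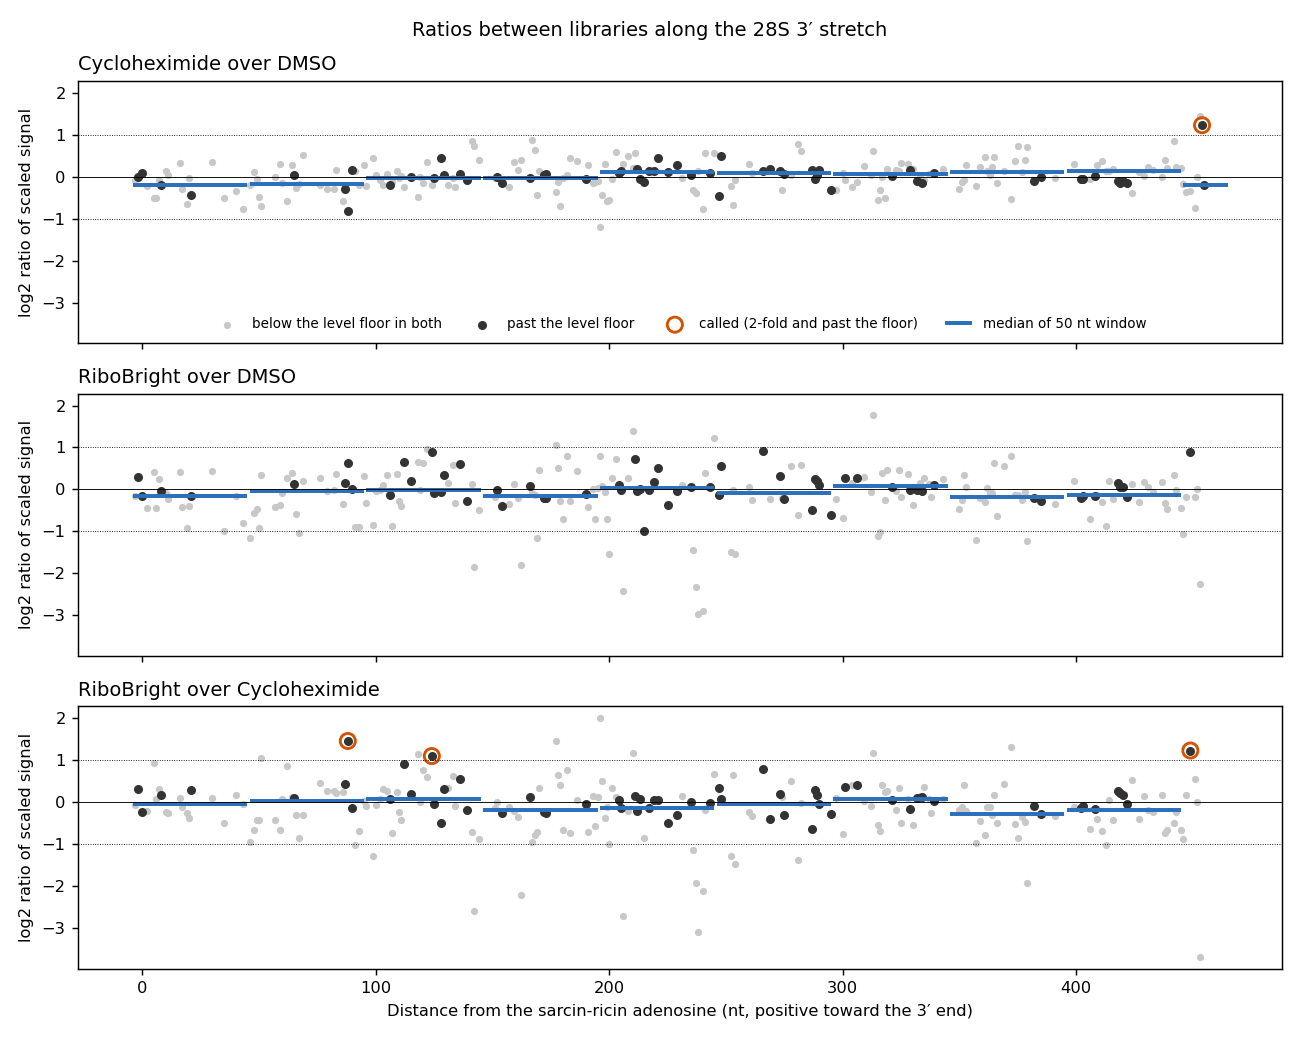
log2 ratio of scaled signal plus pseudocount at each member, by distance in nt from A4605, for the 3 comparisons. Black points passed the level floor of 0.24025, grey points did not, orange rings mark called members, blue bars are medians of 50 nt windows with at least 8 members, and dotted lines mark 2-fold. The black points hug the zero line, with 1 ring in cycloheximide over DMSO, 0 in RiboBright over DMSO and 3 in RiboBright over cycloheximide.

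RiboBright against DMSO gave no call in the stretch. Of 63 members past the floor 0 were called, against 5.22% over 28S rRNA (2.61% higher and 2.61% lower), and 54 lay within 1.5-fold (85.7%), against 81.9%. The median log2 ratio of the 230 members was -0.06, and that of all 1838 positions compared was -0.08. The highest ratio was at C4871, with 0.22 in DMSO and 0.465 in RiboBright (0.92). Near it were A4729, with 0.136 and 0.288 (0.90), and C5054, with 0.186 and 0.387 (0.89). C4816 had 0.143 and 0.266 (0.72), and A4717 had 0.228 and 0.401 (0.66). All 5 were below the floor in DMSO and reached it in RiboBright alone or, at C4871, also in cycloheximide as scaled.

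The lowest ratio was at C4820, with 0.252 in DMSO, 0.242 in cycloheximide and 0.133 in RiboBright, a log2 ratio of -0.99 just short of 2-fold. C4900 had -0.61, A4892 -0.49, C4759 -0.40 and A4830, with 0.884 and 0.743, -0.38. Of these 5, C4759 and A4892 are among the most reactive members of the stretch. Window medians were lowest in G4951 to G5000 (-0.17) and U4601 to G4650 (-0.16) and highest in C4801 to C4850 (0.03) and G4901 to U4950 (0.09). Over 79 windows of 28S rRNA the quartiles were -0.19 and 0.03. Most members of these windows were of low signal, with 2 of 22 at or above 0.24025 in G4951 to G5000 in each library. In U4601 to A4700 the 44 members had a median of -0.15, while the 8 past the floor had 0.07 with 5 above 0.

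The treated libraries differed from each other most at C4693. Its signal was 0.307 in cycloheximide and 0.893 in RiboBright, with DMSO between them at 0.523. On the log2 scale RiboBright stood 1.46 above cycloheximide, the highest of the members past the floor, and the scaled difference was 0.52. Among cytidines its rank was 206 of 1450 in DMSO, 315 of 1490 in cycloheximide and 74 of 1111 in RiboBright. Against DMSO neither compound reached 2-fold there, with -0.83 and 0.63.

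The neighbours of C4693 moved less. A4692 gave 0.488 with DMSO, 0.422 with cycloheximide and 0.598 with RiboBright, the same order of libraries, with a log2 ratio of 0.44 between the compounds. C4695, 2 nt further, had 1.056, 1.254 and 1.169, where cycloheximide was the highest. A4691 had 0.11, 0.074 and 0.092 and C4696 had 0.077, 0.09 and 0.04, low in every library. No value near C4693 was missing or 0.

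In all, 3 of 62 members past the floor were called higher in RiboBright than in cycloheximide and 0 lower. Over 28S rRNA the rule called 3.91% higher and 1.85% lower, 5.76% in either direction, so the share of members called, 4.84%, was near the background. Of the 62, 56 lay within 1.5-fold (90.3%), against 81.9% over 28S rRNA. A4729 had 0.124 in cycloheximide and 0.288 in RiboBright (1.10). Its neighbour A4727 gave 0.108 with DMSO, 0.15 with cycloheximide and 0.242 with RiboBright, and the adjacent C4730 was high and alike in all 3 libraries. C5054 had 0.153 and 0.387 (1.23) and lies 16 nt from the 3′ end.

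Members next in order were A4717, with 0.201 in cycloheximide and 0.401 in RiboBright (0.91), and C4871, with 0.256 and 0.465 (0.78). On the low side A4892 had the lowest ratio, -0.65, from 1.516 in cycloheximide and 0.999 in RiboBright. C4733 had -0.50, A4830 -0.50, A4874 -0.40 and C4834 -0.32. None of these 7 reached 2-fold. The window medians were lowest in G4951 to G5000, at -0.29 with 18 of 22 members below 0, and in G4751 to C4800, at -0.18. They were highest in G4901 to U4950 and A4701 to G4750, at 0.07 in each. Over 79 windows of 28S rRNA the quartiles were -0.22 and 0.04, and -0.18 lies between them. The median log2 ratio of the 230 members was -0.09 and that of all 1838 positions compared was -0.08, so 0 is not the middle of this comparison.

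Over 64 members that reached the floor in some library and had all 3 values, the highest scaled signal was a median of 1.18 times the lowest, pseudocount included. For 54 the spread was up to 1.5-fold, and for 3 at least 2-fold, namely C4693, C5054 and A4729. Of the 64, 53 reached the floor in all 3 libraries, and the others entered through 1 or 2 libraries in which they were higher.

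At the extreme 3′ end the values were sparse, and 2 of the 4 called members lay in the last 20 nt. C5059 had 0.101 in the control and 0.265 under cycloheximide (log2 ratio 1.23), and no value in RiboBright. Beside it A5058 gave 0.039 with DMSO, 0.131 with cycloheximide and 0 with RiboBright, and C5057 was at 0 in all 3. A5060, the last member with a value, had 0.643 in DMSO and 0.587 in cycloheximide. Around C5054, C5051 had 0.114, 0.106 and 0.054, C5052 had 0.113, 0.091 and 0.108, and A5056 had 0.018, 0.007 and 0.016. The part of read depth in the calls at C5054 and C5059 was not tested.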

How the data were processed

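Dimethyl sulfate mutational profiling of 28S rRNA was analysed in 3 libraries, 1 per treatment. The deposited values are a signal per A or C with 3 decimals. Per the submitters' processing notes Bowtie2, cutadapt and the build hg38 were used, and the notes give no version. What counted and normalized the mutations, the least coverage and the dose of dimethyl sulfate: not given in the sources used here. Per the labels' protocols cDNA was made with random hexamers and TGIRT-III. In each library and base the values ranked 2 to 10% from the top averaged between 0.987 and 0.995, so a change shared by all nucleotides would not be visible. A and C may each have been set to their own scale, so their levels may not be comparable. The series table and the library files held identical values. No library without dimethyl sulfate was analysed here, so natural modifications remain in the signal.

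Scaling, ratios and the call rule were computed with Python 3.11.15, numpy 2.4.6 and pandas 2.3.3, and tested on simulated data. Pairing probabilities came from ViennaRNA 2.7.2 at 37 °C. The members, lists and call rule were chosen with earlier results of these data known. Positions were named by rule: the sarcin-ricin loop, the 10 highest in DMSO, called members with neighbours within 3 nt, the 5 highest and 5 lowest ratios past the floor, values of 0 or missing, extreme windows and the longest open and covered runs. C4341 was added as a reference. C4711, C4878, C4846, C4848 and C4850 were chosen after their values were seen, as was the mention of C4733 with the computed pairing. Alternatives covered scaling, pseudocount, floor, fold, positions kept, windows and the fold computed.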

Additional observations from a re-analysis of the deposited data

How the results depend on the processing

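With 1 library per group, none could be left out. No paired analysis was possible because each group has a single library. A median or level counted as moved past 0.1 on the log2 scale or 1.5-fold, a count past 1.5-fold. Of the planned checks 120 stayed within those limits and 37 did not, and of those on window scaling, chosen after the data were seen, 22 stayed and 2 did not. For cycloheximide against DMSO the higher call, 1 as reported, became 0 with a pseudocount of 50% of the DMSO median, a floor at the 90th percentile, a 3-fold rule, without the last 20 nt or over members above 0 in all libraries. It became 2 with the floor at the DMSO median or no floor. Lower calls became 1 with no floor (C4801) or at 1.5-fold (C4693). Calls in either direction made up 1.29% of members tested with no floor and 3.33% at 1.5-fold, against 8.91% and 11.1% over 28S rRNA. For RiboBright against DMSO higher calls, 0 as reported, became 4 without scaling (A4727, A4729, C4871 and C5054), 4 with no floor and 7 at 1.5-fold. Lower calls became 1 with a pseudocount of 1% (C4820), 2 with the floor at the DMSO median, 19 with no floor and 2 at 1.5-fold. With no floor, calls in either direction made up 10% of members tested, against 15.5% over 28S rRNA. The shares were 14.3% and 18.1% at 1.5-fold, and 6.15% and 7.16% without scaling. The lower calls with no floor include members listed at 0 in RiboBright. The member median of RiboBright against DMSO moved from -0.06 to 0.057 without scaling. Its lowest window became -0.40 with windows of 25 nt, -0.30 with means and -0.061 without scaling, and its highest 0.22 without scaling. For RiboBright against cycloheximide higher calls, 3 as reported, became 1 with the floor at the 90th percentile (C4693), 10 with no floor, 5 at 1.5-fold and 0 at 3-fold. Lower calls became 2 with the floor at the DMSO median, 16 with no floor and 1 at 1.5-fold. Calls in either direction made up 11.3% of members tested with no floor and 9.68% at 1.5-fold, against 15.0% and 18.1% over 28S rRNA. The highest window of this comparison became 0.25 with windows of 25 nt and its lowest -0.18 with windows of 100 nt. C4693 was called under each scaling, pseudocount and floor tried with 2-fold. The median of U4601 to A4700 under cycloheximide stayed below 0 under each scaling, from -0.19 to -0.11. Means in place of medians gave adenosines 0.203, 0.212 and 0.204 and cytidines 0.284, 0.302 and 0.310 in DMSO, cycloheximide and RiboBright, unpaired adenosines 0.262 and paired cytidines 0.177 in DMSO. Unpaired cytidines had 0.721 (median) with stricter pairing limits of 0.9 and 0.1. The causes were not tested. The depth is unknown, so members of low signal, where RiboBright holds 11 zeros, bear no statement on change.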

Other observations

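The sequence next to a cytidine went with its signal in the stretch. The 58 cytidines followed by a guanosine had medians of 0.122 in the control, 0.1545 under cycloheximide and 0.167 under RiboBright, and 20 of them (34.5%) were at or above 0.24025 in DMSO. The 60 followed by another cytidine had medians of 0.053, 0.055 and 0.0565, with 13 (21.7%) at that level in DMSO. Of the 4 most reactive cytidines, C5008, C4613, C4759 and C4730, each is followed by a guanosine. The other 4 cytidines among the 10 highest members are not, since C4809 precedes an adenosine, C4777 and C4771 a cytidine and C4987 a uridine. The rest of 28S rRNA had 0.120 for 462 cytidines before a guanosine (34.6% at that level) and 0.049 for 501 before a cytidine (14.2%). Before an adenosine and before a uridine the DMSO medians were 0.056 (n = 18) and 0.085 (n = 24) in the stretch. In the rest they were 0.087 and 0.0725, the reverse order.

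Place within a run of cytidines gave an overlapping split, not a separate observation. The cytidines followed by another cytidine are those at the 5′ side of a run or inside one. The 65 single cytidines had a median of 0.112 in DMSO, the 35 at the 5′ side of a run 0.07, the 35 at the 3′ side 0.071, and the 25 inside a run 0.038. Inside runs 3 of 25 reached 0.24025, against 22 of 65 single ones (33.8%). In the rest of 28S rRNA the medians were 0.123, 0.065, 0.062 and 0.0325 in the same order. Adenosines showed less of it, with 0.1195 for 46 single ones and 0.1155 for 12 at the 5′ side of a run. These are descriptions across positions of one molecule, and the part of base pairing in them was not tested.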
